A study of Rattus norvegicus with 9 samples.

Results

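The 4 genes described here are Tlr4, Tlr2, Cd14 and Myd88, the receptors, co-receptor and adaptor with which cells recognise lipopolysaccharide (LPS) and related bacterial molecules. They were chosen by their Ensembl rat gene identifiers (ENSRNOG00000010522 for Tlr4, ENSRNOG00000009822 for Tlr2, ENSRNOG00000017819 for Cd14 and ENSRNOG00000013634 for Myd88), and all 4 were present among the 30560 genes of the deposited table. The values come from 9 RNA-seq libraries of HBZY-1, an established rat line of glomerular mesangial cells, the contractile cells that hold together the capillaries of the renal filter. There were 3 libraries from the extract group (high-dose water extract of lyophilized powder of the leech Poecilobdella manillensis), 3 from an LPS-induced model and 3 controls. The series gives the replicates as biological and states neither doses nor exposure times. Whether the extract cells were exposed to LPS as well, and whether the control cells were left untreated, is not given by the labels. All libraries come from this single line. Its defining mesangial markers, and those of other kidney cells or leukocytes, were not analysed here, since the table's identifiers are not paired with gene names.

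LPS is a lipid-anchored sugar of the outer membrane of Gram-negative bacteria. CD14 is a surface or soluble co-receptor that takes up LPS and hands it to TLR4, which signals in a complex with its partner MD-2. MyD88 is the cytosolic adaptor that binds the activated receptor and recruits kinases of the IRAK family, and the cascade ends in NF-kappaB and MAP kinase activity. TLR2 recognises bacterial lipoproteins rather than LPS, works with CD14 as well, and uses the same adaptor. Mesangial cells are known to carry TLR4, through which they can answer bacterial products without help from infiltrating leukocytes.

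The sequences before an annotated transcript start of 3 of these genes are shown because Tlr4 and Cd14 differed most clearly between the groups in the tests, in opposite directions, and Tlr2 is the gene listed at 0 in 2 of the 3 control libraries. Each is the 250 bases ahead of a transcript start annotated by RefSeq in the rat assembly GRCr8, read 5′ to 3′ on the strand of the gene. Capitals mark matches, on either strand, to an NF-kappaB-type motif (GGG, any 5 bases, CC) or to GAGGAA, a purine-rich core of sites of the ETS family of transcription factors.
Tlr4, chr5:85160997-85161246, plus strand: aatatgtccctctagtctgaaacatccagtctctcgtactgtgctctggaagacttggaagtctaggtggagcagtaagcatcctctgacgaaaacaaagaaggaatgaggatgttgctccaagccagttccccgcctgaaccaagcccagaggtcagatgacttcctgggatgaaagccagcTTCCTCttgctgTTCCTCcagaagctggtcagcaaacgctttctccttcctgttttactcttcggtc
Tlr2, chr2:171504558-171504807, minus strand: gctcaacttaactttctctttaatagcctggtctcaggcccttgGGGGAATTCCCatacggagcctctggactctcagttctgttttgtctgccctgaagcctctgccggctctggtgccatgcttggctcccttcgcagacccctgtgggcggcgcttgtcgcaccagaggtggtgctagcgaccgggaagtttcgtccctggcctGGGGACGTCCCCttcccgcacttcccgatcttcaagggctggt
Cd14, chr18:28611159-28611408, minus strand: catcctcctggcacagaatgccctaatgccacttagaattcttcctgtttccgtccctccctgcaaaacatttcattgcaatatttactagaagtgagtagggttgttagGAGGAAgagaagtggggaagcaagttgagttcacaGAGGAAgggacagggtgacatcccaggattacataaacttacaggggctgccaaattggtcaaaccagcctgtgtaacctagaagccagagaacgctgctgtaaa
The windows of Tlr2 and Cd14 lie inside the span that RefSeq gives these genes, and RefSeq lists a further transcript model for each.

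The Tlr4 window held 2 GAGGAA matches, both on the opposite strand (TTCCTC), beginning 67 and 55 bases before the start, and the Cd14 window held 2, beginning 140 and 105 bases before it. The motif was present in 23.3% of the 33469 rat windows of the same length. In the Tlr2 window, the NF-kappaB-type motif gave 7 overlapping matches in 2 stretches, beginning 206 and 43 bases before the start, and 42.3% of all windows held at least 1 match. Both stretches contain a match that reads the same on both strands. That of the first, GGGAATTCCC, occurred in 15 of the 33469 windows (0.0448%), and that of the second, GGGACGTCCC, in 6 (0.0179%). These palindromes were counted after the sequence had been seen. The Myd88 window held neither of the marked motifs. It had 1 match, TGAATCA, to the AP-1-type motif TGANTCA, taken loosely with any base at N. That loose motif was present in 6.34% of windows and does not occur in those of the other 3 genes. These matches are descriptions of the letters only.

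The levels are TPM, in which reads are taken per length of a gene and each library sums to 1000000, so that genes can be compared within a library. TPM keeps no record of read depth, so the replicate spread alone gives the precision. Across the 12192 genes tested, Pearson's r of log2 values was at least 0.9766 within groups and at most 0.9689 between groups. In bulk RNA, fewer cells expressing a gene and less of its RNA per cell cannot be told apart.

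Tlr4, the signalling receptor for LPS, was lower in extract cells than in either other group, while LPS and control cells were close to each other. Its level was 14.56, 14.06 and 14.18 TPM in extract libraries, 22.46, 22.89 and 24.62 TPM in LPS libraries, and 23.67, 25.18 and 23.55 TPM in control libraries. All 3 extract values lay well below the other 6, whose ranges overlapped. Separation of groups was common in itself, since values did not overlap for 65.1% of tested genes in extract versus LPS, 61.1% in extract versus control and 50.1% in LPS versus control. The means were 14.3 ± 0.261 TPM in extract, 23.3 ± 1.14 TPM in LPS and 24.1 ± 0.908 TPM in control cells (SD, n = 3 each). The mean level in extract cells was 0.612 times that of LPS cells and 0.591 times that of control cells. On the log2(TPM + 1) scale, Tlr4 fell by 0.67 ± 0.047 (SE) in extract versus LPS (limma adjusted p = 2.06e-06, 95% interval -0.78 to -0.57). In extract versus control it fell by 0.72 ± 0.047 (limma adjusted p = 2.24e-06, 95% interval -0.82 to -0.61). Differences this large and in this direction were uncommon across the transcriptome, with a lower fold change in 5.05% of tested genes against LPS cells and in 4.33% against control cells. Counted in either direction, 12.5% and 7.58% of tested genes had a larger change, in the same order.

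In LPS versus control the log2 difference of Tlr4 was -0.05 ± 0.047, with a 95% interval of -0.15 to 0.06 and a limma adjusted p of 0.457. Its sign turned with the scaling of the libraries, to 0.04 under median-of-ratios scaling and 0.04 under quantile normalization, and the difference passed the threshold in neither. In the order of its levels, control and LPS cells were therefore not separated beyond their spread, and extract cells stood below both. The same sequence of calls (none in LPS versus control, lower in both extract comparisons) was found for 1564 of the tested genes, or 12.8%.

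Cd14, the co-receptor that delivers LPS, was ordered the opposite way, with its highest level in extract cells. It stood at 14.55, 16.0 and 15.39 TPM in extract libraries, 9.22, 10.84 and 12.51 TPM in LPS libraries, and 7.94, 7.97 and 9.37 TPM in control libraries. The extract values lay above all others, whereas the lowest LPS value lay just under the highest control value. Extract values were separate from LPS values in 65.1% of tested genes, and from control values in 61.1%, in either direction. The means were 15.3 ± 0.728 TPM in extract, 10.9 ± 1.65 TPM in LPS and 8.43 ± 0.817 TPM in control cells (SD, n = 3 each). With a coefficient of variation of 15.2%, the LPS libraries were the most spread out for this gene, against 4.75% in extract and 9.70% in control libraries.

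The level of Cd14 in extract cells was 1.82 times that of control cells, or 0.79 ± 0.1005 (SE) higher on the log2 scale (limma adjusted p = 0.000141, 95% interval 0.57 to 1.02). Among the tested genes, 97.5% had a lower fold change than Cd14 in that comparison. A larger change in either direction was found for 6.18% there, 22.9% in extract versus LPS and 21.8% in LPS versus control. In extract versus LPS the level of Cd14 was 1.41 times as high, or 0.47 ± 0.1005 higher on the log2 scale (limma adjusted p = 0.00281, 95% interval 0.24 to 0.69). In LPS versus control the level was 1.29 times as high, or 0.33 ± 0.1005 higher on the log2 scale (limma adjusted p = 0.0282, 95% interval 0.10 to 0.55). That smallest step was less secure than the others. It missed the threshold when LPS replicate 2 (adjusted p = 0.0751), LPS replicate 3 (0.0859), control replicate 1 (0.0950) or control replicate 2 (0.0853) was left out, when only these groups were fitted (0.0687), and when no filter on low genes was applied (limma adjusted p = 0.135). With TPM as deposited, 119 tested genes (0.976%) were called higher in LPS than in control and higher again in extract than in LPS. Under median-of-ratios scaling the genes called higher in LPS versus control went from 1193 to 2117, and the share of this sequence was not recounted. Cd14 itself kept its call in LPS versus control in 13 of 19 alternatives.

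**Figure D1:**
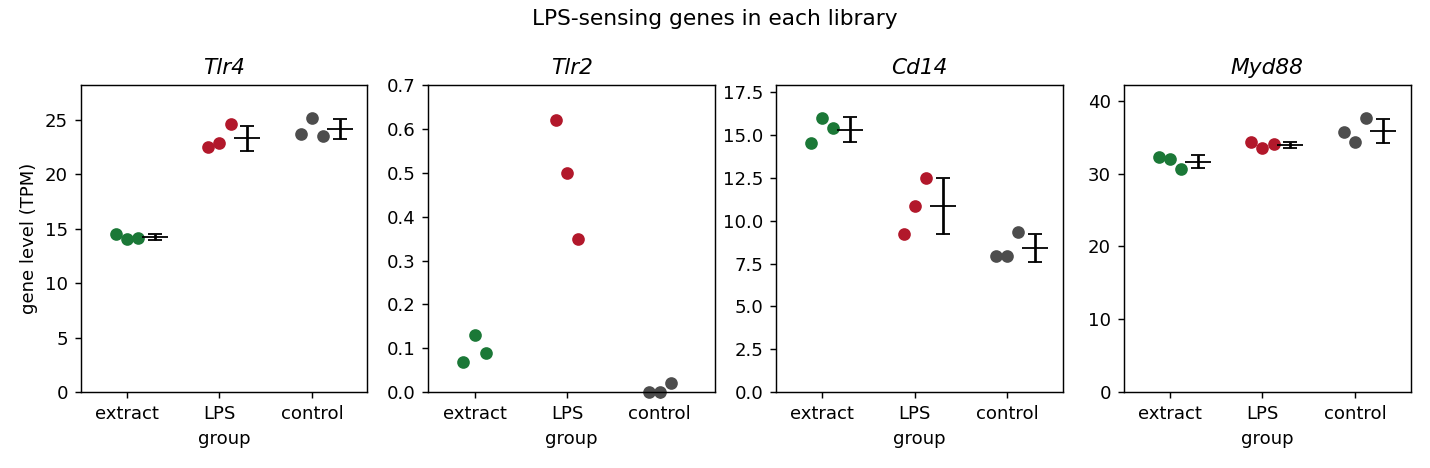
Level of each of the 4 genes in TPM (vertical axes, each from 0) in the 3 extract, 3 LPS and 3 control libraries; points are libraries, and bars to the right are the mean ± SD (omitted for Tlr2, which is listed at 0 in 2 libraries). Tlr4 is lowest and Cd14 highest in the extract libraries, Tlr2 is highest in the LPS libraries, and Myd88 spans only 30.64 to 37.64 TPM.

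Myd88, the shared adaptor, had the highest level of the 4 genes in every library, and its group means lay closer together, relative to their level, than those of the other 3. It stood at 32.3, 32.01 and 30.64 TPM in extract libraries, 34.26, 33.5 and 34.1 TPM in LPS libraries, and 35.65, 34.32 and 37.64 TPM in control libraries. The extract values lay below all 6 others, and the highest LPS value lay just under the lowest control value, so no groups overlapped. Such separation was found for 65.1% of tested genes in extract versus LPS, 61.1% in extract versus control and 50.1% in LPS versus control. The means were 31.65 ± 0.887 TPM in extract, 34.0 ± 0.401 TPM in LPS and 35.9 ± 1.67 TPM in control cells (SD, n = 3 each).

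Of the 3 pairwise differences of Myd88, only extract versus control passed the threshold with TPM as deposited. Its log2 fold change there was -0.17 ± 0.042 (limma adjusted p = 0.00634, 95% interval -0.27 to -0.08), and the extract mean was 0.882 times the control mean. Of all tested genes, 55.4% had a larger change in either direction in that comparison. In extract versus LPS the log2 difference was -0.10 ± 0.042 (limma adjusted p = 0.0678, 95% interval -0.19 to -0.0045). The interval leaves out 0 although the difference did not pass, because intervals are not adjusted for the number of genes tested. That difference passed under median-of-ratios scaling (limma adjusted p = 0.0123), under quantile normalization (0.00690), with only the extract and LPS groups fitted (0.0465), and without control replicate 3 (0.0452). In LPS versus control it was -0.08 ± 0.042 (limma adjusted p = 0.180, 95% interval -0.17 to 0.02), close to the median of all tested genes (-0.08), and its sign turned to 0.02 under median-of-ratios scaling. The neighbouring levels of Myd88 were thus not separated by the test as set, only its highest and lowest. The same sequence of calls was found for 381 tested genes (3.12%).

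**Figure D2:**
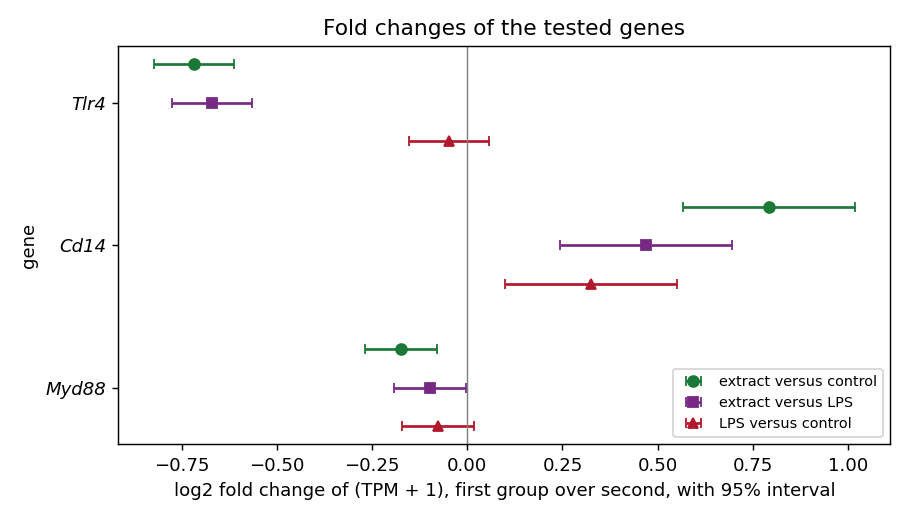
Log2 fold change of (TPM + 1) for Tlr4, Cd14 and Myd88 (rows) in the 3 comparisons, as points with 95% intervals from the limma fit; the first-named group is over the second. Both extract comparisons lie left of 0 for Tlr4 and right of 0 for Cd14, and the Myd88 points lie between -0.17 and -0.08.

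Tlr2, the lipoprotein receptor, was barely detected, and its highest values were in LPS cells. It was listed at 0.07, 0.13 and 0.09 TPM in extract libraries, at 0.62, 0.5 and 0.35 TPM in LPS libraries, and at 0, 0 and 0.02 TPM in control libraries. The groups did not overlap: every LPS value exceeded every extract value, and every extract value exceeded every control value. Among the 6616 genes that were above 0 TPM in some library but below a mean of 1 TPM, such separation was found for 10.0% in extract versus LPS, 10.4% in extract versus control and 9.76% in LPS versus control. With 3 libraries against 3, an exact permutation test of the TPM (two-sided) gave p = 0.1 in each comparison, the smallest value it can give.

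With its mean under 1 TPM, Tlr2 was not among the genes tested, but it entered the fit without a filter. There, on the log2(TPM + 1) scale, it differed by -0.44 ± 0.063 (SE) in extract versus LPS (limma adjusted p = 0.00275), by 0.12 ± 0.063 in extract versus control (limma adjusted p = 0.327), and by 0.56 ± 0.063 between LPS and control cells (limma adjusted p = 0.00190). In that fit of 30560 genes, 20.8%, 17.3% and 12.6% of all genes were called in these comparisons, in the same order. Those shares are lowered by 11752 genes at 0 TPM in every library, which entered the fit but could not be called. The sizes of the Tlr2 differences rest on the pseudocount. With 0.1 or 5 in place of 1 they were -1.57 or -0.11 in extract versus LPS, 0.88 or 0.026 in extract versus control, and 2.45 or 0.13 between LPS and control cells. No fold is given against control cells, where the values are at or near 0 and rounded to 2 decimals. Even in LPS libraries the Tlr2 level was between 0.0142 and 0.0276 times the Tlr4 level of the same library.

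Counted together, 2 of the 3 tested genes were called in extract versus LPS (Cd14 higher, Tlr4 lower), where 59.4% of all tested genes were called, 34.4% higher and 25.0% lower. All 3 tested genes were called in extract versus control (1 higher, 2 lower), against 51.7% of all tested genes, 22.3% higher and 29.4% lower. In LPS versus control 1 of the 3 was called, and was higher, against 40.7% of all tested genes, 9.79% higher and 30.9% lower. Under median-of-ratios scaling, lower genes made up 51.7% of those called there, against 76.0% with TPM as deposited. With 3 genes, these counts cannot be set apart from the shares over all genes. The median log2 fold change of the 3 genes was -0.10 in extract versus LPS, -0.17 in extract versus control and -0.05 in LPS versus control, beside medians of 0.04, -0.04 and -0.08 over all tested genes. Each median of the 3 is the value of a single gene, Myd88 in both extract comparisons and Tlr4 in LPS versus control. It does not describe a shared shift, since Cd14 was higher in all 3 comparisons.

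**Figure D3:**
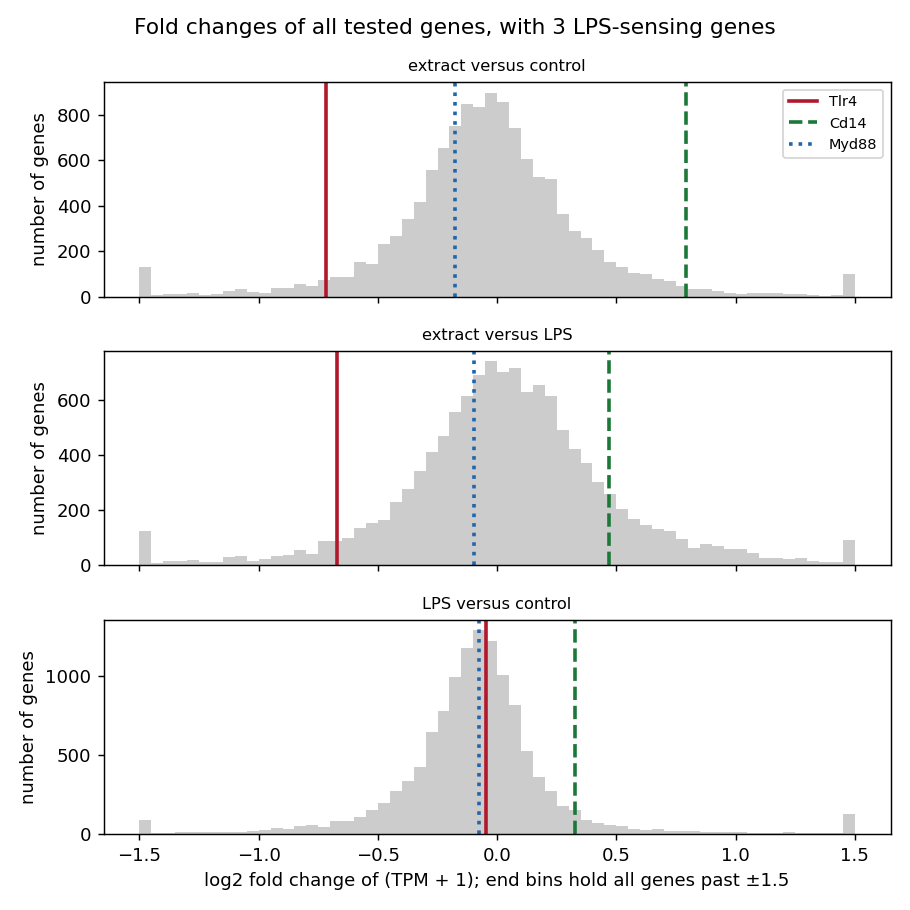
Number of tested genes (vertical axes) by log2 fold change of (TPM + 1) in bins of 0.05, for each comparison, with lines at Tlr4 (solid), Cd14 (dashed) and Myd88 (dotted); the end bins collect all genes past 1.5 in size. Tlr4 lies in the lower tail and Cd14 towards the upper tail in both extract comparisons, and Tlr4 and Myd88 lie near the middle in LPS versus control.

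Because Tlr4 and Cd14 differed in opposite directions, their proportion differed more than either level. A ratio taken within a library is not altered by a single scaling factor per library, although quantile normalization can alter it. The Cd14 to Tlr4 ratio of TPM was 0.999, 1.14 and 1.09 in extract libraries, 0.411, 0.474 and 0.508 in LPS libraries, and 0.335, 0.317 and 0.398 in control libraries. Co-receptor and receptor transcripts were thus about equally abundant in extract cells, whereas Cd14 was the scarcer of the pair in all LPS and control libraries. The mean ratio was 1.07 ± 0.0700 in extract, 0.464 ± 0.0495 in LPS and 0.350 ± 0.0426 in control cells (SD, n = 3 each). The extract ratio was 2.31 times that of LPS cells and 3.07 times that of control cells, and the LPS ratio was 1.33 times that of control cells. No groups overlapped, and the exact permutation test (two-sided) gave p = 0.1 in each of the 3 comparisons, its smallest possible value. In both extract comparisons the levels fixed this outcome, since extract libraries held the highest Cd14 and the lowest Tlr4 values. The ratio therefore adds no support there. How often ratios of other genes separate was not counted.

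The Myd88 to Tlr4 ratio, adaptor over receptor, was 2.22, 2.28 and 2.16 in extract libraries, 1.53, 1.46 and 1.39 in LPS libraries, and 1.51, 1.36 and 1.60 in control libraries. The extract values lay above all others, and the LPS and control values were intermingled. The mean was 2.22 ± 0.0579 in extract, 1.46 ± 0.0703 in LPS and 1.49 ± 0.119 in control cells (SD, n = 3 each). The exact permutation test (two-sided) gave p = 0.1 for extract against either other group, the smallest it allows, and p = 0.8 for LPS against control. In both extract comparisons the levels fixed the outcome here too. Tlr4 was far lower in extract libraries, and Myd88, which was also lowest there, differed much less. This ratio therefore adds no support for a difference in Myd88. The ratios were chosen after the gene levels had been seen.

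**Figure D4:**
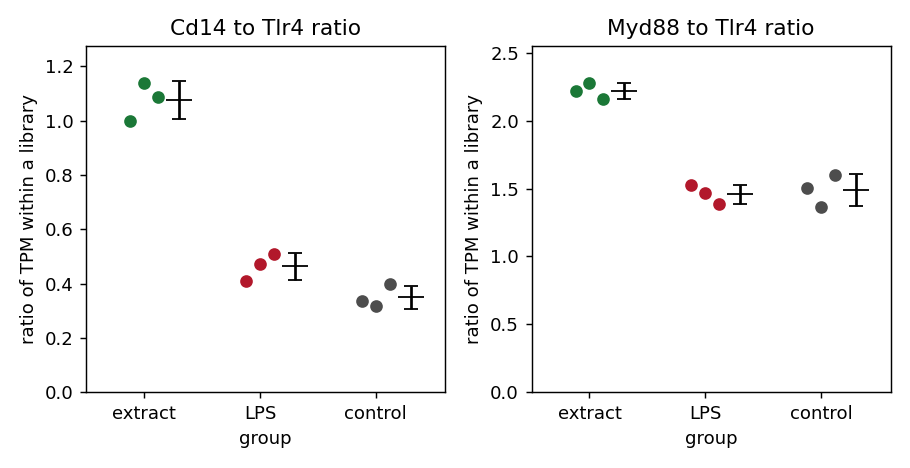
Ratio of Cd14 to Tlr4 (left) and of Myd88 to Tlr4 (right), each the quotient of TPM within a library (vertical axes from 0), in extract, LPS and control cells; points are libraries, bars are the mean ± SD. The extract libraries stand alone at 0.999 to 1.14 on the left and at 2.16 to 2.28 on the right.

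Relative to the rest of the transcriptome, the 4 genes covered a wide range of levels. Myd88 exceeded between 63.0% and 67.9% of the 12192 tested genes, depending on the library. Tlr4 exceeded between 40.6% and 57.3%, and Cd14 between 26.1% and 44.1%. Tlr2 exceeded at most 1.39% of them. No other gene of the table had the same values as any of the 4 in all 9 libraries, as an indistinguishable copy would.

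Transcripts were assigned to the genes where the levels of neighbouring transcripts in the table added up to the gene level in every library. Tlr4 and Cd14 were each represented by 1 transcript (ENSRNOT00000014020 and ENSRNOT00000023977), so their gene and transcript values are the same. Tested among 19383 transcripts, the Cd14 difference in LPS versus control had a limma adjusted p of 0.0637 and did not pass, where 23.0% of transcripts were called. Tlr4 and Cd14 were called as transcripts in extract versus LPS, as 39.1% of transcripts were, and in extract versus control, as 32.0% were.

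Myd88 was the sum of 4 transcripts, and ENSRNOT00000018341 carried between 96.1% and 99.4% of its TPM in every library. That transcript stood at 32.1, 31.11 and 29.97 TPM in extract, 33.89, 32.31 and 32.78 TPM in LPS and 34.84, 33.85 and 37.0 TPM in control libraries. Its log2 fold change in extract versus control was -0.18 ± 0.048 (SE; limma adjusted p = 0.0218), where 32.0% of transcripts were called. The transcript call did not hold under median-of-ratios scaling (limma adjusted p = 0.0685), nor without extract replicate 2 (0.0573), extract replicate 3 (0.0737) or control replicate 3 (0.0667). The other 3 Myd88 transcripts stayed at or under 0.76 TPM in every library.

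Tlr2 was the sum of 2 transcripts. ENSRNOT00000097289 was listed at 0.07, 0.04 and 0 TPM in extract libraries, at 0.4, 0.35 and 0.35 TPM in LPS libraries, and at 0 in all 3 control libraries. ENSRNOT00000013025 was listed at 0, 0.09 and 0.09 TPM in extract libraries, at 0.22, 0.15 and 0 TPM in LPS libraries, and at 0, 0 and 0.02 TPM in control libraries. The higher Tlr2 level of the LPS libraries was thus mainly in ENSRNOT00000097289, the only one of the pair that was above 0 in all 3 LPS libraries.

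The genes whose levels ran most like those of each tested gene were sought by Pearson's r of log2(TPM + 1) over the 9 libraries, which fall into 3 groups and are shared by all genes. For Tlr4, 589 other tested genes had an r above 0.95, against 13 for Cd14 and 8 for Myd88. The highest values of all were with Tlr4, at 0.9965 for ENSRNOG00000037113 and 0.9958 for ENSRNOG00000019428. ENSRNOG00000037113 averaged 95.8 TPM in extract, 205.8 TPM in LPS and 208.8 TPM in control cells, and ENSRNOG00000019428 averaged 95.2, 168.3 and 185.7 TPM in the same groups. Like Tlr4, both were lowest in extract cells, which follows from their having been picked by their r with Tlr4.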

How the data were processed

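RNA of 9 HBZY-1 libraries was sequenced, 3 per group by the labels. The authors deposited gene and transcript levels as TPM, rounded to 2 decimals. Tools named in the submitters' processing notes are HISAT2 2.1.0, RSEM 1.3.3 and fastp, without roles. The build, annotation, strandedness and depth were not given in the sources used here. TPM is relative, so raised abundant genes lower all others.

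Columns were matched by library title. The 12192 genes whose mean reached 1 TPM were tested as log2(TPM + 1), which understates changes of low genes, in 1 limma 3.58.1 fit (R 4.3.3) of all 9 libraries with a mean-variance trend. The test was two-sided, with Benjamini-Hochberg adjustment over all genes and a threshold of 0.05. The same fit was run on 19383 transcripts, linked to genes by sums equal within 0.006 TPM per value. The procedure was also run on simulated data with independent noise and changes in few genes of the LPS group only. These data have many called genes and a scaling shift, which that run did not cover. P-values measure only the spread between these libraries, which may be technical.

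The members and lists were chosen with earlier results of these data known. All 4 members are named. The lists of other pathway genes and cell type markers were not analysed here, because none of the identifiers matched the reference table (0 of 47357 genes carry one). For the most similar genes, the rule was at most 2 identifiers, those with the highest r. The motifs and the r limit of 0.95 were chosen after values were seen. Promoter sequences are from RefSeq (GRCr8), where all 4 symbols matched. Replicate numbers were not taken to pair libraries. Alternatives covered pseudocount, filter, scaling, block, groups fitted, trend, weights and each library left out.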

Additional observations from a re-analysis of the deposited data

How the results depend on the processing

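In both extract comparisons, neither direction nor call of Tlr4 and Cd14 changed under any of the 19 alternatives, nor those of Myd88 in extract versus control. Values below are log2 differences. Scaling turned the uncalled LPS-control differences: with median-of-ratios scaling and quantile normalization, Tlr4 stood at 0.043 and 0.038 (0.045 and 0.042 as a transcript) and Myd88 at 0.016 and 0.0067, with 0.0028 for its main transcript under the first; these put LPS above control in the order of levels. By construction both scalings centre the libraries, and genes called in LPS versus control went from 1193 higher and 3769 lower to 2117 and 2264 or 1940 and 2402. Myd88 in extract versus LPS passed at -0.15 and -0.16 under the scalings (its transcript at -0.15 under the second) and at -0.10 with only those groups fitted, each giving 1 separated pair of neighbouring levels where the main setting gave 0. Its transcript in extract versus control missed the threshold at -0.13 under median-of-ratios scaling. Cd14 in LPS versus control stayed at 0.33 but missed the threshold without a filter and with only those groups fitted, leaving 1 of 2 neighbouring pairs separated. As a transcript it passed at 0.33 with a filter of 5 TPM and with the replicate block, and at 0.41 and 0.42 under the scalings. The cause was not tested.

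With each library left out in turn, Cd14 ranged from 0.23 to 0.43 in LPS versus control (gene and transcript), with 1 to 2 separated pairs, and Myd88 from -0.11 to -0.076 in extract versus LPS, with 0 to 1. The uncalled LPS-control differences ranged from -0.086 to -0.018 for Tlr4 and from -0.11 to -0.042 for Myd88, and stayed uncalled. The Myd88 transcript ranged from -0.20 to -0.14 in extract versus control. Pseudocounts of 0.1 and 5 gave Tlr2 differences of 2.45 and 0.13 in LPS versus control. They gave -1.57 and -0.11 in extract versus LPS, and 0.88 and 0.026 in extract versus control. Without a filter it passed at 0.56 and -0.44 in the first 2. Quantile normalization, the block and the other refits were not run for Tlr2, and the filter of 5 TPM gives it no value, because it is outside the filter. With the replicate block Tlr4 in extract versus LPS kept -0.67 (limma adjusted p = 3.13e-05) and Cd14 0.47 (limma adjusted p = 0.00122), and no gene-level call of the 3 genes changed. Deviations of same-numbered libraries correlated at -0.0554 to 0.0951, and 6 of 9 libraries deviated most like one of their own number. Without read depth, whether Tlr2 at 0 TPM lacked transcripts or reads was not examined.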
